A study of Homo sapiens with 6 samples.

Results

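CCDC152 and SELENOP are a pair of overlapping genes on chromosome 5, and their rows are 2 of the 59087 gene rows in the deposited count table. They were taken by name and selected on their read counts, because the CCDC152 row had far more reads in THUMPD2 knockout cells than in wild-type cells. The levels of both rows in all 6 libraries were known when they were chosen, so their values are given as a description without a test. The study sequenced total RNA of HEK293T cells, an immortalised human embryonic kidney line. There were 2 libraries of the line labelled THUMPD2 KO#2 (KO2), 2 of the line labelled THUMPD2 KO#1 (KO1) and 2 of cells labelled WT. THUMPD2 methylates the U6 small nuclear RNA of the spliceosome, and a second knockout line was included to test reproducibility. No treatment or culture condition is named for any group. How the lines were made, and whether each is 1 clone, is not given in the sources used here, and both lines are set against the same 2 WT libraries.

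SELENOP encodes selenoprotein P, a secreted glycoprotein that the liver releases into plasma and that carries selenium to other tissues. It holds several selenocysteine residues, each encoded by a UGA codon that would otherwise end translation, and elements in its 3' untranslated region direct the ribosome to insert selenocysteine there. Receptors of the LDL receptor family, LRP8 (also called ApoER2) in brain and testis and LRP2 (megalin) in kidney, take the protein up. CCDC152 is annotated as a coiled-coil protein gene. It is also known for an RNA complementary to SELENOP mRNA, named L-IST, that has been described as an inhibitor of SELENOP translation.

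The 2 genes lie tail to tail on GRCh38, in GENCODE release 29. CCDC152 (ENSG00000198865.9) runs on the plus strand of chromosome 5 from 42756801 to 42802360 and has 3431 exonic bases. SELENOP (ENSG00000250722.5) runs on the minus strand from 42799880 to 42887392, with 5688 exonic bases over all of its 15 annotated transcripts. Their exons share a single block of 1452 bases, from 42799880 to 42801331, which is 42.3% of the exonic bases of CCDC152. For CCDC152 this block is entirely 3' untranslated sequence in its last exon. For SELENOP it is the whole last exon of the transcript SELENOP-214, 64.7% of the 2243 bases of that transcript, and it holds 9 of the 10 selenocysteine codons. A read in an exon of CCDC152 can thus lie over an exon of SELENOP only in this block.

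The coding stretches with the selenocysteine codons are shown because they divide between the part of SELENOP that CCDC152 covers and the part it does not. Both are read 5' to 3' on the minus strand from the GENCODE transcript sequence, with the TGA codons annotated as selenocysteine in capitals. The first lies in exon 2, outside CCDC152, at chr5:42808162-42808194. The other lies in the shared block, at chr5:42800720-42800968, and ends at the stop codon taa.
SELENOP first selenocysteine: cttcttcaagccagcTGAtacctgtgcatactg
SELENOP shared coding stretch: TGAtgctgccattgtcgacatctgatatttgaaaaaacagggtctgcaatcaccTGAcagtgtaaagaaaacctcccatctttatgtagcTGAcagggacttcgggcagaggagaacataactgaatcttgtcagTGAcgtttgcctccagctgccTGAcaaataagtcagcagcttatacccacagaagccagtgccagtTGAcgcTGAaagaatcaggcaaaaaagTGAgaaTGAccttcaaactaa

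The RefSeq start of SELENOP lies outside the exons of CCDC152, and 2 GENCODE transcripts of SELENOP start upstream of SELENOP-214. The promoter stretch at the RefSeq start of each gene is shown because the CCDC152 row moved with genotype while the SELENOP row stayed low. Each stretch is 250 bases before and 50 after that start (GRCh38.p14), 5' to 3' on the strand of its gene. Capitals mark 3 motifs, which were chosen after the sequence was seen and searched on both strands. One is a FOXO-type site with the letters GTAAACA. Another is an HNF4-type site with the letters CAAAGTTCA. The last is a TATA box with the letters TATAAA. FOXO and HNF4 factors are known regulators of SELENOP in liver. The SELENOP promoter (chr5:42811843-42812142) held 1 match of each, with no overlap between them, and the CCDC152 promoter (chr5:42756568-42756867) held none. Among 35116 RefSeq promoters of the same length, 3.42% hold the FOXO-type letters, 0.3% the HNF4-type letters and 11.53% the TATA box. A match describes the letters and does not show that a factor binds.
SELENOP promoter: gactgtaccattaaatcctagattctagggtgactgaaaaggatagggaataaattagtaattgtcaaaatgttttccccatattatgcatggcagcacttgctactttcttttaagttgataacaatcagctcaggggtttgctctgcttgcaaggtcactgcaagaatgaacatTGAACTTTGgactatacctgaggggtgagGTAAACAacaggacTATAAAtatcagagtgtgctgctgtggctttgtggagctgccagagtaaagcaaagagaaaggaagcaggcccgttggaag
CCDC152 promoter: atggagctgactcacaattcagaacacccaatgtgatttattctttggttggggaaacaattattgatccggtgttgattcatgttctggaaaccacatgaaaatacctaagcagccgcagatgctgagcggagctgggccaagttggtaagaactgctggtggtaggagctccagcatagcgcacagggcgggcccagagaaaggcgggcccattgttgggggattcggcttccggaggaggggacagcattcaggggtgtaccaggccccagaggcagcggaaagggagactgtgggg

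**Figure D1:**
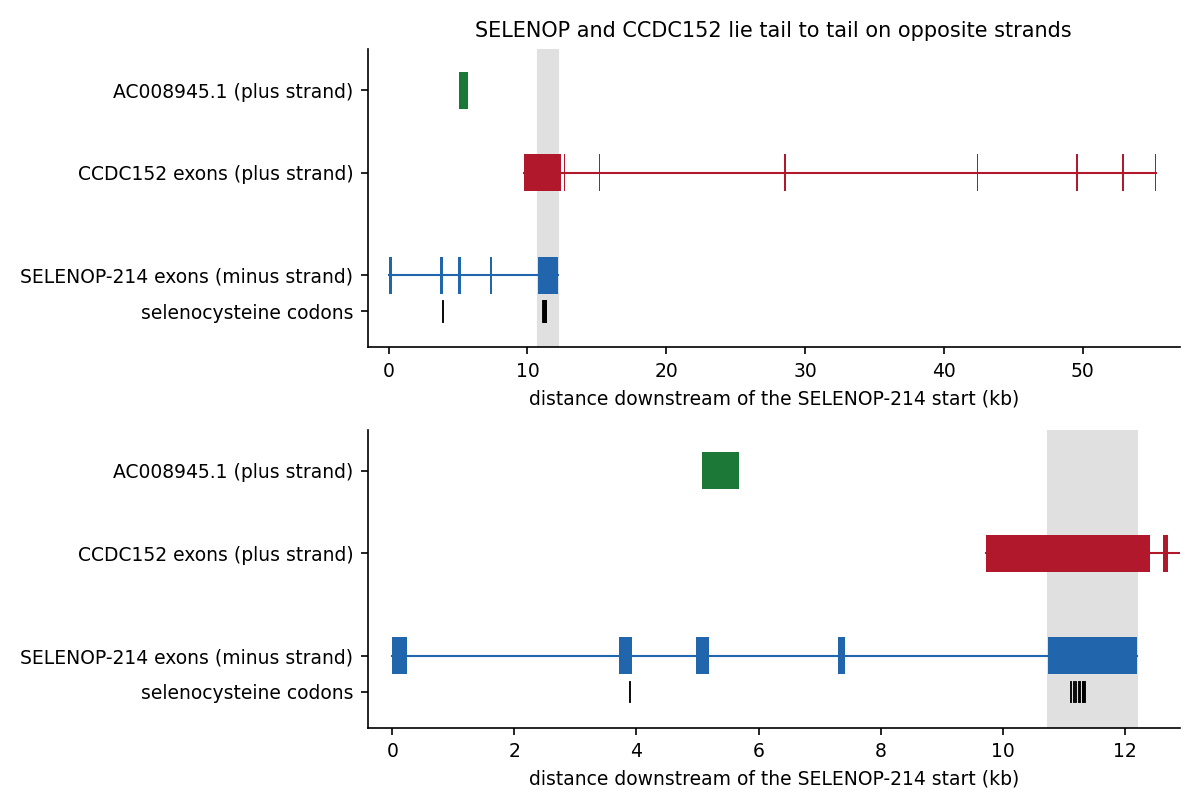
Exons of CCDC152 (red), SELENOP-214 (blue) and AC008945.1 (green), with the selenocysteine codons as black ticks, against distance in kb downstream of the SELENOP-214 start; the lower panel enlarges the SELENOP end, and the grey band is the shared block. The band spans the 1452 bases of the SELENOP last exon and 9 of the 10 selenocysteine codons, and AC008945.1 lies apart from it.

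A further row lies over SELENOP. AC008945.1 (ENSG00000272234.1), annotated as an antisense gene with 604 exonic bases on the plus strand from 42806394 to 42806997, sits over exon 3 of SELENOP-214 and the intron after it. Of its bases, 102 fall in exons of SELENOP-214, and all 604 fall in an exon of some SELENOP transcript. It shares no exonic base with CCDC152, so the CCDC152 and AC008945.1 rows count reads at separate places over the same gene. It was not part of the choice of members, but it lies in the same locus and comparison, so its values too are given without a test.

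Total counts were between 7414339 and 8391143 per library. The THUMPD2 row held 0 and 1 reads in KO2, 3 and 0 in KO1, and 1 and 2 in WT, too few to check the genotype labels. The libraries keep strand information, and the strand setting of the counting is not given in the sources used here. The row of the abundant gene GAPDH held a median of 167.5 reads, against 130212 in the AC006064.4 row over its exons on the other strand. Of 3689 protein-coding genes with a row tied to their other strand and enough reads, 61.3% had more reads in that row than in their own. The RPL30 row held 283 to 350 reads, against 26923 to 29653 in AP003352.1, over 871 of its exonic bases on the other strand. Which strand's RNA a row of this locus holds therefore cannot be told from the row's name, and each value below is that of the row. The CCDC152 and AC008945.1 rows may thus hold RNA of the SELENOP strand, which was not tested. Of the kidney and nephron markers, 4 of 12 own rows held at least 10 reads on average, and LHX1 had none in any library. The summed level of the own rows was 18.1 to 21.3 CPM in KO2, 23.3 to 23.4 in KO1 and 31.0 to 35.6 in WT. The 5 rows over such markers on the other strand summed to 17.2 to 19.9 CPM in KO2, 57.8 to 59.2 in KO1 and 30.8 to 31.4 in WT. In KO1 the 2 sums thus lay on opposite sides of WT, and the part of these markers in the results was not tested. Fewer transcribing cells and less RNA per cell cannot be told apart in these bulk samples.

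The CCDC152 row held 876 and 1014 reads in KO2, 660 and 559 in KO1, and 8 and 11 in WT. Every knockout library was far above both WT libraries, and every KO2 library was above both KO1 libraries. In CPM, the counts scaled to a common library size, after TMM scaling, which corrects library totals for differences in composition, the row averaged 111.2 ± 7.45 in KO2, 83.3 ± 6.30 in KO1 and 1.22 ± 0.211 in WT (SD, n = 2 each). These levels placed the row above 89.6% of the 14184 tested rows in KO2 and 87.2% in KO1, but above only 11.6% in WT. The row thus stood among the rarer rows in WT and well above most rows in both lines. Its fitted log2 fold change was 6.48 ± 0.17 (SE) in KO2 against WT, an 89.4-fold difference, and 6.06 ± 0.18 in KO1 against WT, a 66.9-fold difference. Without WT library 2 these values were 6.68 and 6.25.

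Sizes of this order were rare among all rows. Over all tested rows the median absolute log2 fold change was 0.41 in KO2 and 0.38 in KO1. The CCDC152 row stood 44th from the top by log2 fold change in KO2 and 31st in KO1. A log2 fold change of at least 6 was found for 49 rows in KO2 and 32 rows in KO1, and 28 rows reached it in both. Between the lines the row was 1.34-fold higher in KO2 than in KO1, a log2 difference of 0.42 ± 0.09 that was small beside either line's distance from WT.

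The deposited FPKM values divide the same reads by gene size and a library factor, so they restate the counts on the authors' scale. The SELENOP row has no FPKM value from the authors. FPKM of the CCDC152 row was 31.1 and 34.2 in KO2, 25.6 and 23.0 in KO1, and 0.306 and 0.391 in WT. The ratio of group means was 93.6 for KO2 over WT and 69.6 for KO1 over WT, and the ratio of summed scaled reads was 90.6 (exact 95% counting interval 57.8 to 150.7) and 67.8 (43.2 to 113.0). The authors' deposited table lists the row at a log2 fold change of 6.27 for the 4 knockout against the 2 WT libraries. That table gives the gene a size of 3493 bases, slightly above the GENCODE value.

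The SELENOP row, named for the gene annotated on the other strand of the locus, did not follow. It held 11 and 8 reads in KO2, 3 and 4 in KO1, and 7 and 8 in WT. The KO2 and WT libraries overlapped, and both KO1 libraries were lowest. In CPM the row averaged 1.13 ± 0.291 in KO2, 0.481 ± 0.117 in KO1 and 0.970 ± 0.0415 in WT (SD, n = 2 each). It did not pass the filter on low counts and was not fitted. The ratio of summed, scaled reads was 1.15 for KO2 over WT, with an exact 95% counting interval of 0.555 to 2.44. For KO1 over WT it was 0.493, with an interval of 0.170 to 1.29. These intervals describe counting error on few reads and leave out the spread between libraries. Without KO2 library 1, the log2 ratio of KO2 to WT was −0.077 instead of 0.214.

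**Figure D2:**
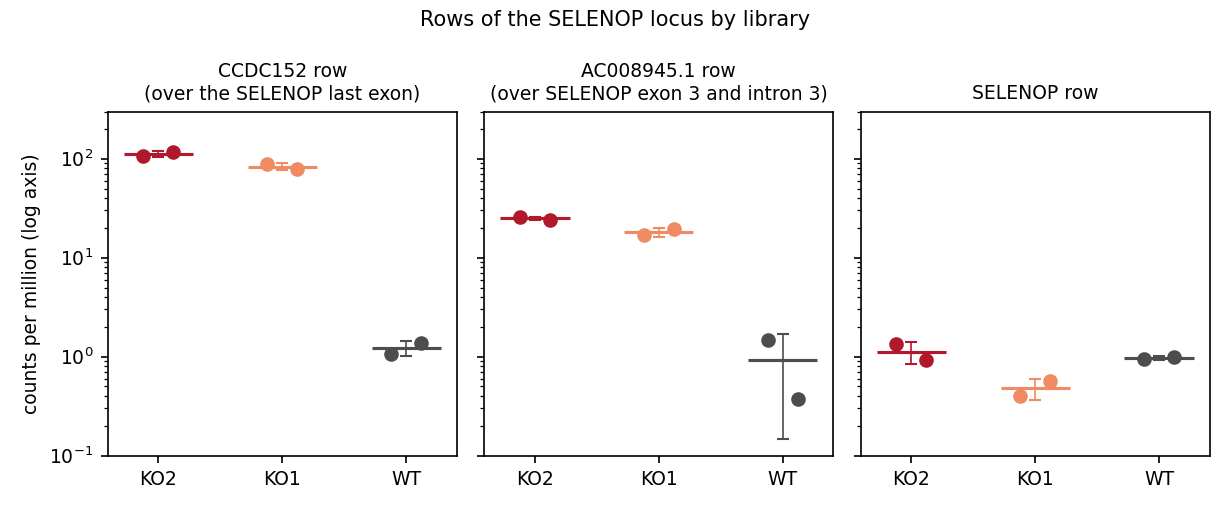
CPM on a log axis for the CCDC152, AC008945.1 and SELENOP rows in KO2, KO1 and WT; points are libraries, horizontal lines group means and bars the SD. The CCDC152 row averages 111.2 in KO2 and 83.3 in KO1 against 1.22 in WT, the AC008945.1 row follows it at a lower level, and the SELENOP row stays between 0.399 and 1.33 in all libraries.

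How far the 2 rows parted is seen within each library, whichever strand's RNA each row holds. The CCDC152 row held 79.6 and 126.8 reads per read of the SELENOP row in KO2, 220.0 and 139.8 in KO1, and 1.14 and 1.38 in WT. In WT the 2 rows were nearly even, while in every knockout library the CCDC152 row outnumbered the SELENOP row by more than the whole WT range. Per exonic base the same ratio was 132.0 and 210.1 in KO2, 364.7 and 231.7 in KO1, and 1.90 and 2.28 in WT. The SELENOP row held so few reads that its sampling sets these ratios, and the higher ratios of KO1 rest on 3 and 4 SELENOP reads. Of all reads in the 3 rows of the locus, the rows CCDC152 and AC008945.1 together took 99.0% and 99.35% in KO2, 99.62% and 99.43% in KO1, and 73.08% and 63.64% in WT.

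The AC008945.1 row moved like the CCDC152 row. It held 213 and 211 reads in KO2, 127 and 138 in KO1, and 11 and 3 in WT, again with no overlap between any pair of groups. Its fitted log2 fold change was 4.76 ± 0.30 in KO2 against WT and 4.30 ± 0.31 in KO1 against WT, or 27.1-fold and 19.7-fold. KO2 stood above KO1 by a log2 difference of 0.46 ± 0.18, close to the 0.42 of the CCDC152 row. In WT the 2 libraries had only 11 and 3 reads, so the size of its fold change is less certain than that of CCDC152. In deposited FPKM the AC008945.1 row was at 43.8 and 41.1 in KO2, 28.5 and 32.8 in KO1, and 2.43 and 0.617 in WT. Per length it was thus above the CCDC152 row in every library, and by the most in WT library 1, where it had 11 reads. CCDC152 reads per AC008945.1 read were 4.11 and 4.81 in KO2, 5.20 and 4.05 in KO1, and 0.727 and 3.67 in WT. The 4 knockout libraries gave similar ratios, and the WT ratios differed widely on few reads. The authors' deposited table lists AC008945.1 at a log2 fold change of 4.77. The deposited tables give no read positions, so how the reads of either row divide between shared exons, other exons and introns was not analysed here.

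The neighbouring genes were examined to see whether the surrounding chromosome moved as well. Besides the 3 rows of the locus, 46 rows are annotated within 1 Mb of CCDC152. Of these 15 had no read in any library and 13 were tested. In KO2 against WT, 4 of the 13 were higher and 1 lower at a Benjamini-Hochberg adjusted p under 0.05 by the edgeR quasi-likelihood test. Over all rows 13.6% were called higher and 15.4% lower, 29.0% in all. In KO1 against WT 2 were higher and 2 lower, against 10.4% higher and 13.3% lower over all rows, 23.6% in all. Their median log2 fold change was 0.19 in KO2 and 0.02 in KO1, against 0.02 and 0.01 over all rows. In KO2 against KO1 4 were higher and 1 lower, against 10.3% and 10.1% over all rows, 20.4% in all. GHR, which encodes the growth hormone receptor and is the nearest protein-coding gene before CCDC152, had 1 read in 1 KO2 library and none in the other 5.

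The neighbours that were called moved in different ways. OXCT1-AS1, over 229 exonic bases of OXCT1 (a mitochondrial enzyme of ketone body use) and centred at −940.9 kb from the SELENOP start (negative toward lower coordinates), held 449 and 524 reads in KO2, 1 and 12 in KO1, and 158 and 168 in WT. It was 2.71-fold higher in KO2 than in WT (adjusted p = 2.27e-09) and fell by 4.54 ± 0.31 on the log2 scale in KO1 (adjusted p = 3.05e-14). By DESeq2 the KO2 call ended, with an adjusted p of 0.259. The OXCT1 row itself held 27 and 23 reads in KO2, 3 and 0 in KO1, and 5 and 10 in WT. It was called in KO2 at 1.59 ± 0.58 (adjusted p = 0.0367), and not without KO2 library 1 (1.45), KO2 library 2 (1.75) or WT library 1 (1.23). The call also ended under the replicate block (1.58, adjusted p = 0.0581) and by DESeq2 (1.61, adjusted p = 0.171). In KO1 it was not called, at −2.16 ± 0.92, but it was called without KO1 library 1, where the remaining KO1 library had 0 reads.

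On the other side of SELENOP, AC025171.1, which lies over a non-coding gene, held 174 and 180 reads in KO2, 72 and 92 in KO1, and 87 and 61 in WT. It rose 2.17-fold in KO2 (adjusted p = 3.78e-05) and was at 0.23 ± 0.22 in KO1, not called. ANXA2R, named for the annexin A2 receptor gene, was called in neither line, at 0.85 ± 0.57 in KO2 and −1.88 ± 0.79 in KO1, but at −2.51 in KO1 and called without WT library 2. AC114947.2, over 703 exonic bases of HMGCS1 (an enzyme of cholesterol synthesis), held 2134 and 2252 reads in KO2, 2396 and 2197 in KO1, and 1868 and 2016 in WT. It rose by 0.32 ± 0.07 in KO1 (adjusted p = 0.00021) and was at 0.04 ± 0.07 in KO2, not called. AC114956.3, over C5orf34, rose by 0.46 ± 0.09 in KO2 (adjusted p = 0.00013) and by 0.27 ± 0.09 in KO1 (adjusted p = 0.0328). The KO1 call of AC114956.3 ended without any 1 of the KO1 or WT libraries, at between 0.20 and 0.33, by DESeq2 (adjusted p = 0.126) and with no filter on low counts (0.0557).

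NNT-AS1, over 217 exonic bases of NNT (the mitochondrial transhydrogenase), was the only tested neighbour lower in both lines. It held 260 and 256 reads in KO2, 259 and 296 in KO1, and 468 and 439 in WT, and fell by 0.95 ± 0.12 in KO2 and by 0.63 ± 0.12 in KO1, with adjusted p-values of 3.45e-08 and 6.13e-05 by edgeR. The remaining tested neighbours, ZNF131, AC025171.3, C5orf34, EEF1A1P19, PAIP1 and NNT, were called in neither line. Their log2 fold changes ran from −0.16 (C5orf34) to 0.75 (ZNF131) in KO2 and from −0.75 (AC025171.3) to 0.67 (ZNF131) in KO1.

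**Figure D3:**
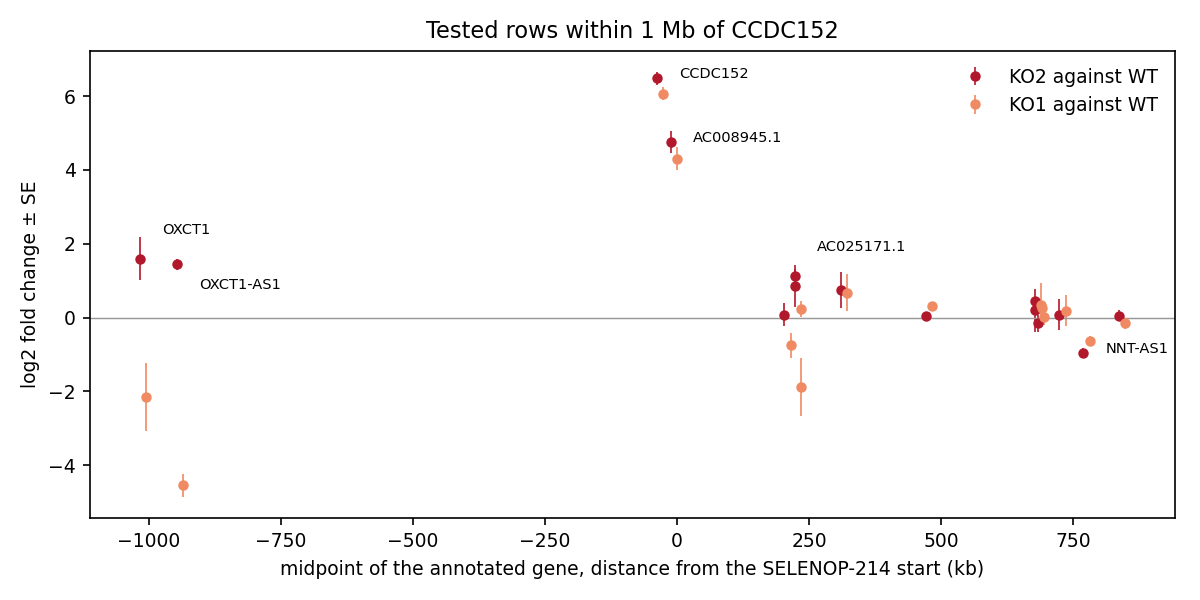
Log2 fold change with SE against distance from the SELENOP-214 start in kb, for the 15 tested rows within 1 Mb of CCDC152, KO2 against WT (dark red) and KO1 against WT (orange). CCDC152 at 6.48 and 6.06 and AC008945.1 at 4.76 and 4.30 stand far above the neighbours, and OXCT1-AS1 lies at 1.44 in KO2 and −4.54 in KO1.

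The other selenoproteins were examined as the family to which SELENOP belongs. Of their 24 own rows, 14 passed the filter. In KO2 against WT 2 were higher and 1 lower by edgeR, where 13.6% of all rows were called higher and 15.4% lower. In KO1 against WT 1 was higher and none lower, where 10.4% of all rows were called higher and 13.3% lower. Their median log2 fold change was −0.05 in KO2 and 0.06 in KO1, against 0.02 and 0.01 over all rows, with members on both sides of 0. SELENOO, named for a mitochondrial protein that attaches AMP to other proteins, held 799 and 836 reads in KO2, 537 and 439 in KO1, and 480 and 478 in WT. Both KO2 libraries lay above all others, and the row rose by 0.64 ± 0.09 in KO2 (adjusted p = 4.69e-07) and was at 0.10 ± 0.09 in KO1, not called. AL022328.2, over 229 exonic bases of SELENOO on the other strand, went the opposite way in KO2, at −0.19 ± 0.07 (adjusted p = 0.0403) with groups that overlapped. That call of AL022328.2 ended without any 1 of the KO2 or WT libraries (between −0.22 and −0.15), with upper-quartile factors, by DESeq2 and under the replicate block (−0.19, adjusted p = 0.0572).

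TXNRD2, named for mitochondrial thioredoxin reductase, held 409 and 406 reads in KO2, 465 and 481 in KO1, and 500 and 491 in WT. It fell by 0.42 ± 0.10 in KO2 (adjusted p = 0.000958) and was at 0.01 ± 0.10 in KO1, not called. Which strand's RNA the TXNRD2 row holds cannot be told from the counts. GPX3, named for the plasma glutathione peroxidase, held 62 and 70 reads in KO2, 29 and 30 in KO1, and 35 and 27 in WT. It rose by 0.95 ± 0.29 in KO2 (adjusted p = 0.0104) and was at 0.01 ± 0.32 in KO1. The KO2 call of GPX3 ended without KO2 library 2 (0.90) or WT library 2 (0.73), and by DESeq2 (0.94, adjusted p = 0.0877). The row higher in KO1 was GPX1, named for the cytosolic glutathione peroxidase, at 1.27 ± 0.42 (adjusted p = 0.0237), with 37 and 25 reads in KO1 against 8 and 19 in WT. It is named after its value was seen, and its call ended without KO1 library 1 (1.01) or WT library 1 (0.83), and by DESeq2 (1.29, adjusted p = 0.106). Without WT library 2 its KO2 value, 1.02 and not called otherwise, was 1.70 and called. The ADGRF3 row, over SELENOI (an enzyme of phospholipid synthesis), was at −0.10 in KO2 and −0.08 in KO1, not called. The highest log2 fold changes of these rows were 1.02 in KO2 and 1.27 in KO1, both of GPX1, against 6.48 and 6.06 for the CCDC152 row.

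**Figure D4:**
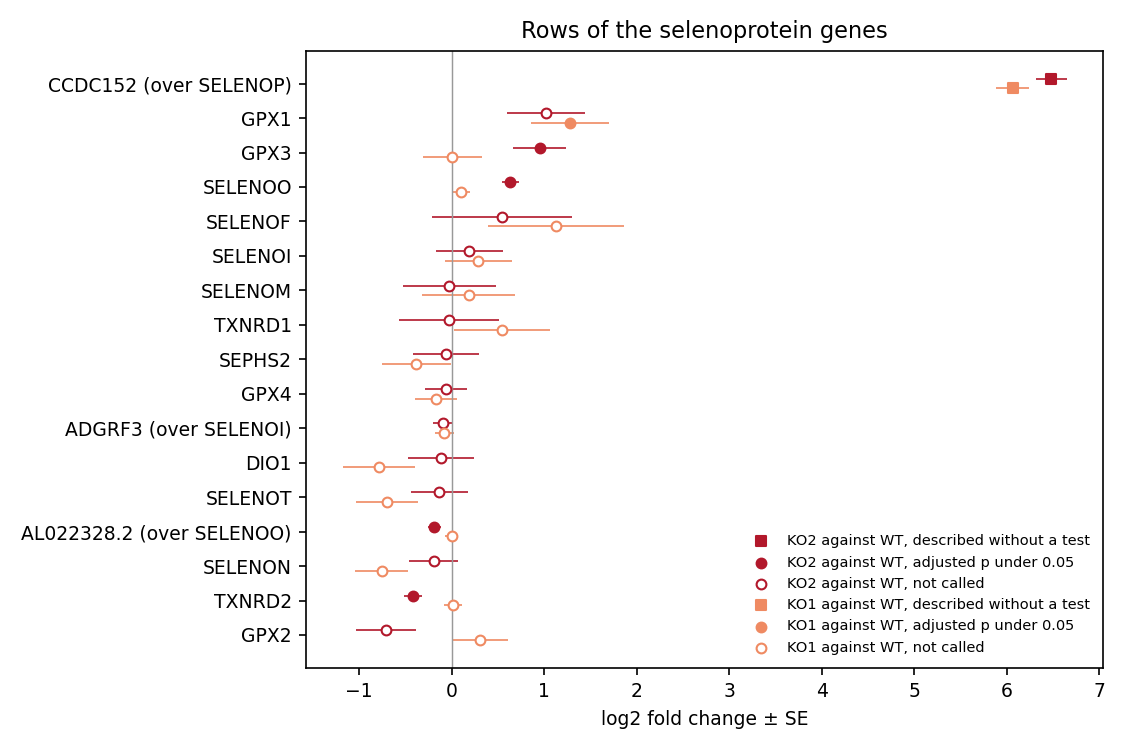
Log2 fold change with SE for tested rows of the selenoprotein genes and rows over them on the other strand, KO2 against WT (dark red) and KO1 against WT (orange); filled circles passed an adjusted p under 0.05, and the squares for CCDC152 are a description without a test. CCDC152 over SELENOP lies at 6.48 and 6.06 and all other rows between −0.79 and 1.27.

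Of 14 own rows of genes that make selenocysteine or insert it, 9 were tested, and 2 were lower in KO2 and 1 in KO1, with none higher. Over all rows 15.4% were called lower in KO2 and 13.3% in KO1. The median log2 fold change of the 9 was −0.02 in KO2 and −0.07 in KO1, against 0.02 and 0.01 over all rows. PSTK, named for the kinase that phosphorylates seryl-tRNA on the way to selenocysteine, held 631 and 623 reads in KO2, 542 and 478 in KO1, and 704 and 780 in WT. All knockout libraries lay below both WT libraries, and the row fell by 0.38 ± 0.08 in KO2 and by 0.46 ± 0.09 in KO1, with adjusted p-values of 0.000595 and 7.09e-05 by edgeR. SARS, named for the seryl-tRNA synthetase, was at −0.94 ± 0.36 in KO2 (adjusted p = 0.0454), on 19 and 21 reads against 36 and 34 in WT, and not called in KO1. The SARS call ended without any 1 of the KO2 or WT libraries, at between −1.03 and −0.85, and under the replicate block (−0.94, adjusted p = 0.0509). It also ended by DESeq2 (adjusted p = 0.175), with no filter on low counts (0.0859) and with upper-quartile factors (0.0542). The rows of SECISBP2, which binds the insertion element, and EEFSEC, the elongation factor for selenocysteine, were at 0.10 and 0.68 in KO2 and at −0.07 and 0.09 in KO1, not called.

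Among the receptors, the AL606760.1 row, over 346 exonic bases of LRP8, held 576 and 578 reads in KO2, 566 and 453 in KO1, and 594 and 651 in WT. It was at −0.24 ± 0.09 in KO2 (adjusted p = 0.0394) and −0.21 ± 0.09 in KO1, not called. The KO2 call of AL606760.1 ended without any 1 of the KO2 or WT libraries, at between −0.27 and −0.20, by DESeq2 (adjusted p = 0.136) and with upper-quartile factors (0.0867). Without KO1 library 1 it was called in KO1, at −0.34. The LRP8 row itself, at −0.37 in KO2 and −0.64 in KO1, was not called, and the LRP2 and LRP1 rows were too low to test. LRP1-AS, over 112 exonic bases of LRP1 and named after its value was seen, was at −0.62 ± 0.20 in KO1 (adjusted p = 0.0198), with 76 and 71 reads in KO1 against 101 and 138 in WT. Its call ended without either KO1 library (−0.63 and −0.61) or without WT library 2 (−0.44), and by DESeq2 (−0.61, adjusted p = 0.0934).

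The own rows of known regulators of SELENOP had few reads, and none of the genes had a row tied to its other strand. As a row may hold the other strand's RNA, few reads do not show that a gene was low. Of 6 own rows 3 were tested, and none was called against WT in either line by edgeR. FOXO3 was at −0.96 ± 0.45 in KO2 and 0.26 ± 0.41 in KO1, FOXO1 at −0.32 and −0.22, and MTF1, a metal-responsive factor, at −0.18 and 0.43. Without KO2 library 1, FOXO3 was at −1.98 in KO2 and called. HNF4A held 7 and 1 reads in KO2, 2 and 1 in KO1, and 1 and 1 in WT, and PPARGC1A 1 read in each KO2 library and none elsewhere.

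Liver genes were examined because the liver is the main known source of selenoprotein P. Of 28 own rows 7 had no read in any library, ALB, AFP, APOH, FGA, AHSG, RBP4 and ITIH4, and 9 were tested. In KO2 against WT 4 were higher and 1 lower, where 13.6% of all rows were called higher and 15.4% lower. In KO1 against WT 2 were higher and 1 lower, where 10.4% of all rows were called higher and 13.3% lower. Their median log2 fold change was 0.25 in KO2 and 0.03 in KO1, against 0.02 and 0.01 over all rows. Their summed level was 278.6 to 280.9 CPM in KO2, 229.6 to 230.6 in KO1 and 223.1 to 224.9 in WT. The part of these genes in the rise of the CCDC152 row was not tested. Of 5 tested kidney and nephron marker rows, 2 were lower in KO2 and 1 in KO1, with none higher. Of 3 tested rows over such markers, 3 were lower in KO2, and 1 was lower and 1 higher in KO1. Over all rows 15.4% were called lower in KO2, and in KO1 13.3% were called lower and 10.4% higher. The rows for albumin and fetoprotein, ALB and AFP, held 0 reads in every library. As a row may hold the other strand's RNA, this does not show whether either gene was silent.

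The CP row, named for the copper carrier ceruloplasmin and lying over 1418 exonic bases of HPS3, held 971 and 1095 reads in KO2, 530 and 479 in KO1, and 684 and 712 in WT. It rose by 0.43 ± 0.08 in KO2 (adjusted p = 4.96e-05) and fell by 0.39 ± 0.08 in KO1 (adjusted p = 0.000503). VTN, named for the plasma adhesion protein vitronectin, held 121 and 142 reads in KO2, 111 and 129 in KO1, and 66 and 78 in WT, and rose by 0.73 ± 0.20 and 0.82 ± 0.20, with adjusted p-values of 0.00411 and 0.00195 by edgeR. Its KO1 call ended without KO1 library 2 (0.66). ITIH3, named for an inter-alpha-trypsin inhibitor chain, was at 1.13 ± 0.39 in KO2 (adjusted p = 0.0268) and FOXA1, a transcription factor, at −1.30 ± 0.46 (adjusted p = 0.0273), neither called in KO1. The ITIH3 call ended without KO2 library 1 (0.95) or WT library 2 (1.01), and the FOXA1 call without KO2 library 2 (−0.75) or WT library 2 (−1.05). By DESeq2 neither was called, at adjusted p-values of 0.149 for ITIH3 and 0.124 for FOXA1.

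The rows most like the CCDC152 row were found by distance over the 6 libraries, on log2 CPM with each row set to its own WT mean. The nearest was UQCRHL at a distance of 0.861, against a median of 12.09 over the 14183 rows ranked. UQCRHL, a near-identical copy of the respiratory chain gene UQCRH, with which it may share reads, held 448 and 439 reads in KO2, 361 and 365 in KO1, and 6 and 3 in WT. It was followed by GPR39 over LYPD1 (1.52), SLC8A1-AS1 over SLC8A1 (1.60), PCAT1 over FAM84B (1.75), HOXB-AS4 (1.89), LINC00896 (1.99), RAC1P9 (2.12) and AC006148.1 (2.21). In WT, PCAT1 had 169 and 142 reads and GPR39 19 and 28, and the other 6 rows at most 6 in a library. SLC8A1-AS1, HOXB-AS4, RAC1P9 and AC006148.1 had at most 3 reads in a WT library. They lie on chromosomes other than 5. AC008945.1, the other row over SELENOP, came 13th at a distance of 3.57. The distance is a description over 6 libraries that share 1 WT mean, and each of these rows has its own size of change.

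**Figure D5:**
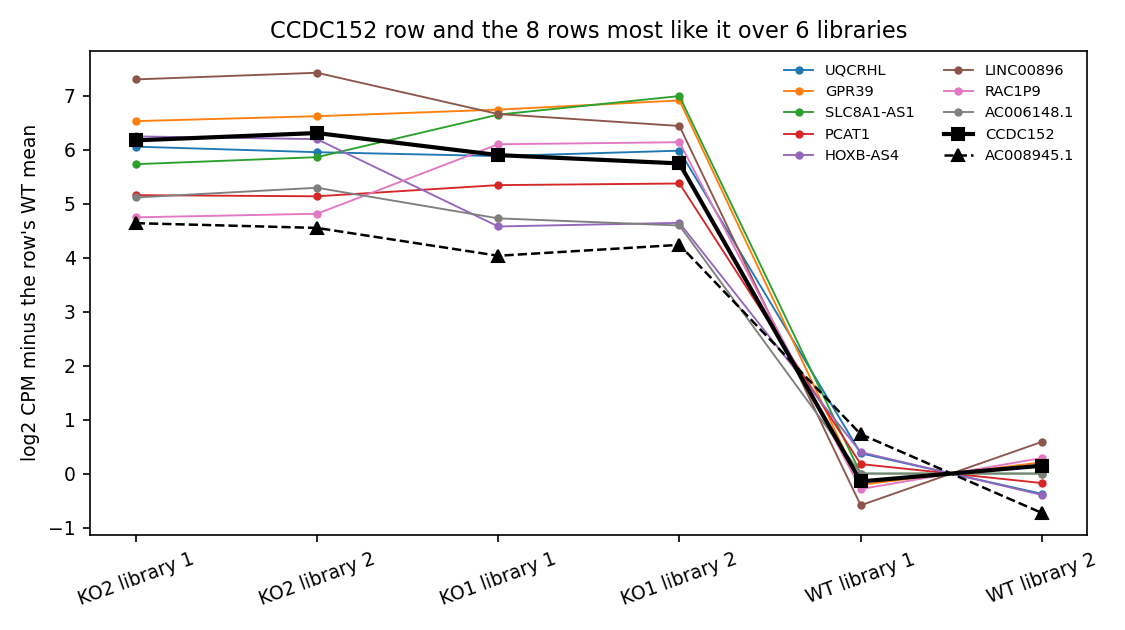
Log2 CPM minus the row's own WT mean in each of the 6 libraries for CCDC152 (thick black), AC008945.1 (dashed) and the 8 rows nearest to CCDC152; lines join the values of 1 row. CCDC152 lies between 5.75 and 6.31 in the knockout libraries, and UQCRHL, the nearest, between 5.88 and 6.06.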

How the data were processed

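Total RNA libraries were made with a strand-keeping kit, RF or first-strand per the labels' protocols. Per the submitters' processing notes, reads were handled with STAR 2.7.1a, HTSeq 0.6.1p1, Trim Galore and limma, and the builds named are GRCh38.p6 and hg38. Which annotation version was used is not given in the sources used here. The authors deposited raw read counts per gene row. The authors also deposited FPKM values, which are the count over the table's gene size and a library factor, and a table of log2 fold changes with p-values and q-values. Groups came from the sample titles. The labels do not say if the libraries of a group are separate cultures. The p-values therefore cover only library-to-library spread, possibly technical.

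Counts were fitted with edgeR 4.0.16 (R 4.3.3) by the quasi-likelihood F test, with TMM factors. The filterByExpr rule left 14184 rows. The 3 groups and their 6 libraries were fitted together, and p-values were adjusted by Benjamini-Hochberg over all rows tested at a threshold of 0.05. The script was tested on simulated data. Counting intervals are exact and cover counting error only. Rows were placed by symbol on GENCODE 29 (56239 directly, 324 through a current symbol). A row was tied to the gene on its other strand with at least 100 shared exonic bases making up at least 80% of its overlap. Named rows were the members, all tested rows within 1 Mb, up to 4 called rows per list by smallest p in KO2 against WT (or 2 as values), and the 8 rows of smallest distance on log2 CPM (prior count 2). Members and lists were chosen with earlier results of these data known. Alternatives were DESeq2 1.42.0, RLE and upper-quartile factors, changed filters, a block for replicate number, the 4 compared libraries alone, leaving out each library, and at least 500 shared bases. A called liver row and an overlap of another row are not reported here, and the list counts include both rows.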

Additional observations from a re-analysis of the deposited data

Results flagged for a closer look

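Of 36 named rows, 18 were called in KO2 over KO1 by the edgeR quasi-likelihood test, with Benjamini-Hochberg adjusted p-values. Over all rows 20.4% were called, and many named rows were chosen by their values, so this count is no test of them. Rows most like the CCDC152 row were among those called, such as HOXB-AS4 at 1.63 (adjusted p = 2.54e-09) and GPR39 at −0.25 (0.00708). The GPR39 call ended without KO1 library 2 (−0.165) or KO2 library 1 (−0.20). The 12 called rows among the neighbours and lists follow. Among the neighbours of the locus, OXCT1-AS1 differed by a log2 fold change of 5.98 (adjusted p = 9.23e-19), OXCT1 by 3.75 (0.000358), ANXA2R by 2.73 (0.00505), AC025171.1 by 0.89 (0.000947) and AC114947.2 by −0.28 (0.00119). Among the selenoprotein rows, GPX3 differed by 0.94 (adjusted p = 0.016), SELENOO by 0.53 (1.6e-05) and TXNRD2 by −0.43 (0.00107). GPX2, not among the 12 and named after its value was seen, was also called, at −1.01 (0.0195). Of the 14 tested selenoprotein rows, 2 were higher and 2 lower in KO2 than in KO1. Over all rows 10.3% were called higher and 10.1% lower. Among the remaining lists, CP differed by 0.82 (adjusted p = 7.33e-10), LRP1-AS by 0.70 (0.0079), ITIH3 by 1.10 (0.0435) and FOXO3 by −1.22 (0.0459). The GPX3 difference was not called without KO2 library 2 (0.90) or KO1 library 1 (0.88). The ITIH3 difference was not called without KO2 library 1 (0.92) or KO1 library 2 (0.57), and FOXO3 not without KO2 library 2 (−0.60) or KO1 library 1 (−1.02). By DESeq2 none of these 3 differences was called, at adjusted p-values of 0.0952 for GPX3, 0.165 for ITIH3 and 0.142 for FOXO3, and with no filter on low counts ITIH3 was not called (0.0596).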

How the results depend on the processing

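The CCDC152 row stayed higher in both lines under every alternative run. Its log2 fold change ran from 6.32 to 6.68 in KO2 against WT and from 5.90 to 6.25 in KO1 against WT when 1 library was left out, in both cases highest without WT library 2. The SELENOP row ran from −0.077 to 0.456 in KO2 against WT, below 0 without KO2 library 1 (−0.077), and from −1.28 to −0.782 in KO1 against WT, with reads so few that depth limits both. DESeq2, the replicate block and stricter filters gave no value for it. The 4118, 3350 and 2889 rows called in KO2 against WT, KO1 against WT and KO2 against KO1 became 2812, 2246 and 1997 by DESeq2. Same-numbered libraries did not deviate together (correlations −0.019 for KO2 and WT and −0.021 for KO1 and WT). This gives no sign of pairing by number but cannot exclude it, as the labels do not say how the libraries were made. Under the replicate block 3944, 3147 and 2729 rows were called and CCDC152 was at 6.48 and 6.06. Of 36 named rows, 24 were called in KO2 and 17 in KO1, where 29.0% and 23.6% of all rows were called. Many of the 36 were named because they were called in KO2 or rose like the CCDC152 row, so these counts follow partly from that choice. In every alternative 16 and 13 were called, and no called value changed sign. With at least 500 shared bases, the called rows over selenoproteins (KO2) and over receptors and kidney markers (both lines) became 0. These rows share 112 to 367 bases with their genes, so they left the set, and their fits were unchanged. The cause of the other changes was not tested. There was 1 WT line, so the knockout and other differences between lines cannot be told apart.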
